A study of Mus musculus with 18 samples.

Results

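The nuclear genes of the mitochondrial respiratory chain were examined in mouse colon. They were taken as every row of the deposited gene table whose symbol starts with Ndufa, Ndufb, Ndufc, Ndufs, Ndufv, Uqcr, Cox4 to Cox8 or Atp5, or is Sdha, Sdhb, Sdhc or Sdhd. This gave 90 of 27131 rows. By role, 7 encode core and 29 accessory subunits of complex I, 4 encode complex I assembly factors, 4 belong to complex II, 8 to complex III, 20 to complex IV and 15 to complex V. The other 3 members, Cox4nb, Atp5s and Atp5sl, match by name and are not subunits of the complexes in this grouping. None of the 27131 rows was a mitochondrially encoded gene, so the subunits made from mitochondrial DNA were not analysed here.

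The samples were polyadenylated RNA from colon tissue of untreated C57BL/6 mice. In 9 libraries (WT) the genotype is given as Hif2a +/+, and in 9 libraries (HIF2) as Hif2a LFL, in mice described as overexpressing HIF2 in the colon. The design text writes the allele as LSL. The promoter or recombinase behind the allele, age, sex, and whether each library came from 1 mouse are not given in the labels. The p-values therefore describe how far these libraries differ among themselves. Libraries are called WT 0 to WT 8 and HIF2 0 to HIF2 8, after the replicate number in the labels.

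The respiratory chain passes electrons from NADH through complex I, and from succinate through complex II, to ubiquinone, then through complex III and cytochrome c to complex IV, which reduces oxygen. The proton gradient built on the way drives ATP synthesis by complex V. Hypoxia-inducible factors are known to exchange a few subunits for isoforms: Cox4i2 can replace Cox4i1 in complex IV, and Ndufa4l2, a homologue of Ndufa4, is a known target that lowers complex I activity. Absorptive colonocytes have many mitochondria and oxidise butyrate.

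Expression values were FPKM, fragment counts scaled to transcript length and to library size, so levels of different genes can be set side by side. Differences are HIF2 minus WT on the log2(FPKM + 1) scale, which understates the change of low genes. A gene passed the test when limma's Benjamini-Hochberg adjusted p, over the 13976 genes whose mean FPKM reached 1, was under 0.05. FPKM sums ran from 686539 to 937505 per library, the members held between 2.07% (HIF2 0) and 3.23% (WT 7) of them, and read depth is unknown. The highest correlation between any pair of libraries was 0.9315.

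Several features of the libraries bear on the results. Epas1, which encodes HIF-2α, averaged 18.8 ± 3.09 FPKM over WT libraries against 22.7 ± 6.36 over HIF2 libraries (± SD, 9 libraries each here and below; log2 difference 0.24, SE 0.14, adjusted p = 0.246). Egln3, a prolyl hydroxylase gene induced by HIF, was 11.4 to 22.2 FPKM in WT and 225 to 549 in 7 HIF2 libraries, but 21.8 and 16.7 in the libraries labelled HIF2 2 and HIF2 4. These 2 libraries thus go against their label on Egln3. Ankrd37, another gene induced by HIF, was 32.1 FPKM in HIF2 2, above every WT library, and 18.6 in HIF2 4, inside the WT range. The member counts and the tests of Ndufa4l2, Ndufa4, Sdha and Atp5d are given with and without these 2 libraries. Other comparisons of all 9 HIF2 libraries include them. Of 10 smooth muscle markers 9 passed the test as higher in HIF2 and 0 as lower, as did all 5 tested of 7 pericyte markers (Higd1b and Notch3 were too low to test) and all 7 fibroblast markers, all 5 endothelial markers and the 5 macrophage markers tested of 6. Of these, 3 pericyte markers (Kcnj8, Abcc9 and Cspg4), 2 endothelial (Cdh5 and Emcn) and 1 of smooth muscle (Lmod1) had WT means under 1 FPKM and reached the mean of 1 needed for testing only through the HIF2 libraries. Of 10 epithelial markers, 0 were higher and 4 lower. The mean of the smooth muscle markers, relative to the WT mean, was 3.14 to 4.30 on the log2 scale in HIF2 0 to HIF2 5, 2.96 in WT 3, and between -0.58 and 0.54 in HIF2 6, HIF2 7 and HIF2 8. In bulk tissue, fewer cells of a type and less RNA per cell cannot be told apart.

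Many nuclear respiratory chain genes are known to be driven by the factor NRF1, and members were seen to move together from library to library (below), so promoters were searched for its core motif. RefSeq promoters of 300 bases (250 before to 50 after a start, GRCm38.p6) were found for 74 members, with 80 promoters in all. The palindrome made of GCGCA and its reverse complement TGCGC was in 6 of these 80 promoters (7.5%), against 0.971% of all 32851 promoters. The 6 windows follow, with the motif in capitals:
Atp5g2: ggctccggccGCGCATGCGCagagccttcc
Atp5k: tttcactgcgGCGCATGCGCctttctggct
Cox6a1: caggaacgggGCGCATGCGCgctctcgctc
Ndufa11: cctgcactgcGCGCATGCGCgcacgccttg
Ndufaf4: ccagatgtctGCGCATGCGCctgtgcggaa
Uqcrc1: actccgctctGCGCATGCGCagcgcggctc

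The windows lie at chr15:102671070-102671099 (-) for Atp5g2, chr5:108434430-108434459 (-) for Atp5k, chr5:115349101-115349130 (-) for Cox6a1, chr17:56717692-56717721 (+) for Ndufa11, chr4:24897960-24897989 (+) for Ndufaf4 and chr9:108936668-108936697 (+) for Uqcrc1. They come from complexes I, III, IV and V and from an assembly factor, and none of the 6 genes passed the test between HIF2 and WT. Searched on both strands in the same promoters, CCGGAAG, a core of sites for ETS factors such as GABP, was in 21.2% of member promoters and 8.86% of all. The hypoxia response element cores were in 27.5% against 19.6% (ACGTG) and 55% against 32.4% (GCGTG). A match describes letters in a window and is not a bound site. Each of these motifs contains CG, and the background promoters were not matched to those of the members for base composition. Whether NRF1 has a part in the shared movement of the members was not tested. No promoter entry was found for Ndufa4l2 or Cox4i2.

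Transcript levels of the respiratory chain genes differed little between HIF2 and WT colon. Of 85 members tested, 1 rose (Ndufa4l2) and 2 fell (Sdha and Atp5d), which is 3.53% of the members against 22.1% of all 13976 genes tested (11.0% higher and 11.1% lower). Ndufa4l2, with a WT mean of 0.299 FPKM, reached the mean of 1 needed for testing only through the HIF2 libraries. Without Ndufa4l2 and Ndufs5, 0 of 83 members rose and 2 fell (2.41%). The members' median log2 difference was -0.03, beside -0.02 for all genes, with 53 members below 0 and 32 above. With HIF2 0 left out the median was 0.03, with 29 members below 0 and 56 above. These counts depend on the libraries and on the marker covariates described further on. With the pericyte marker mean in the fit 23 members were higher and 0 lower (median 0.32). In that fit 17.1% of all genes were called and 9.29% were higher. Of the 5 markers in that mean, 3 reached the mean of 1 FPKM only through the HIF2 libraries. The member median was -0.14 in HIF2 0 to HIF2 5 and 0.15 in HIF2 6 to HIF2 8. The latter were set against 8 WT libraries, without WT 3, which had the highest smooth muscle markers in WT. Without the libraries labelled HIF2 2 and HIF2 4, an alternative added after the data were seen, 1 member rose and 3 fell, Ndufa4 being the third (median -0.04; 21.8% of all genes called). At an unadjusted p under 0.05 there were 4 members and 4707 genes. The 95% interval of the difference lay within 1 log2 unit of 0 for 82 of 85 members (96.5%), against 82.5% of all genes, and within 0.5 for 78 (91.8%), against 53.6%. The median standard error was 0.131 for members and 0.133 for all genes. No member had all 9 HIF2 libraries outside the WT range, which 2.02% of all genes had.

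**Figure D1:**
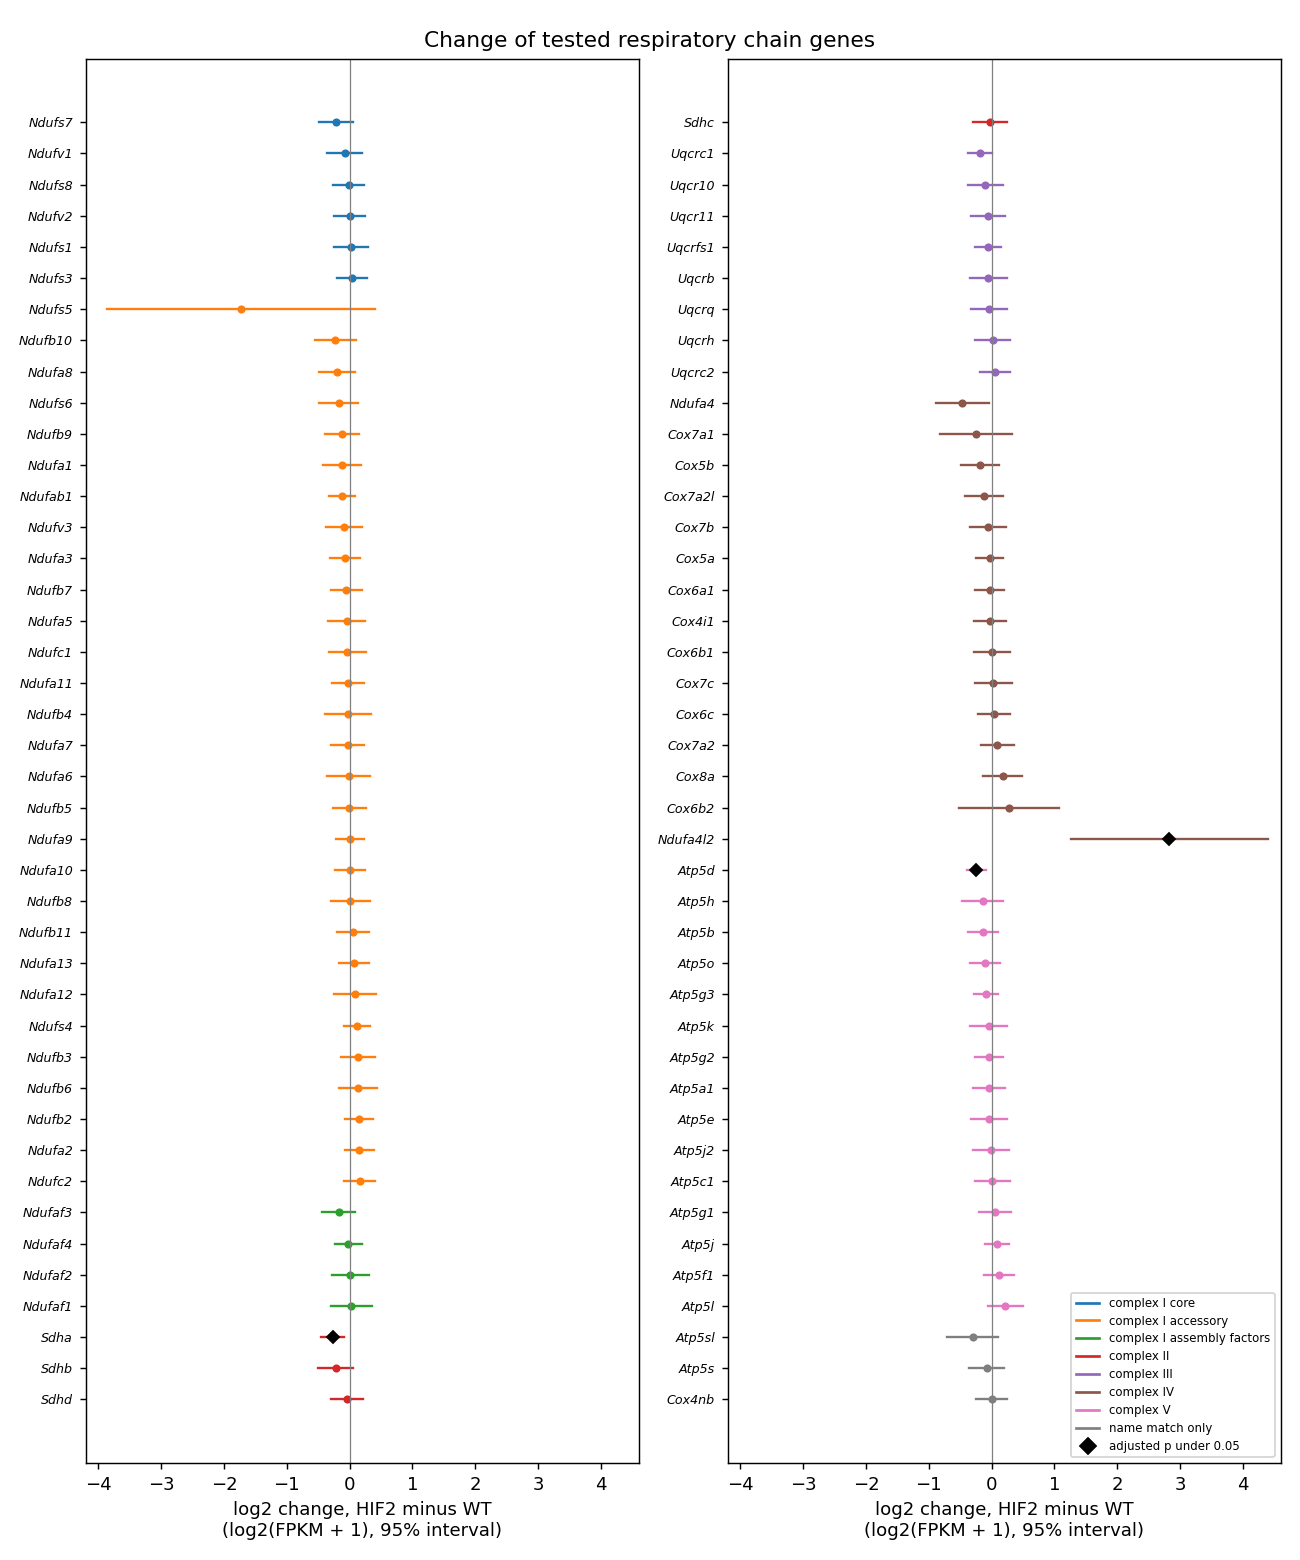
Log2 difference (HIF2 minus WT, log2(FPKM + 1)) of the tested members, 1 left out, each with its 95% interval, coloured by role and with black diamonds for an adjusted p under 0.05. Leaving aside Ndufa4l2 at 2.83 and Ndufs5 at -1.73, the points lie between -0.46 and 0.28.

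Among the 7 core subunits of complex I, which hold the flavin and iron-sulfur clusters that carry electrons from NADH, 0 passed the test. Their median WT level was 112.5 FPKM, and their median log2 difference was -0.00. Ndufs7, a subunit with an iron-sulfur cluster near the quinone site, had the largest difference in size among them. It was 94.9 to 141 FPKM (median 107) in WT and 60.7 to 158 (median 95.4) in HIF2, and 7 of 9 HIF2 libraries lay below the WT median. The log2 difference of -0.22 (SE 0.13) did not pass (adjusted p = 0.259).

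None of the 29 accessory subunits of complex I passed either, with a median difference of -0.03 and 17 below 0. Ndufb9 and Ndufa6, subunits with the LYR fold, had the highest levels among them. Ndufb9 was 396 ± 68.4 FPKM in WT and 366 ± 68.6 in HIF2 (-0.12, SE 0.13, adjusted p = 0.566), and Ndufa6 was 368 ± 83.1 and 368 ± 80.8 (-0.01, SE 0.16, adjusted p = 0.973). In both genes HIF2 0 was the lowest library, at 207 and 179 FPKM. Ndufs5, an accessory subunit of the membrane arm (chromosome 4, 123712710 to 123718202, GRCm38), had values that fell into 2 ranges. It was listed at 0.00149 FPKM in WT 6 and at 0.00522, 0.00136, 0.00282 and 0.00249 in HIF2 0, HIF2 4, HIF2 5 and HIF2 6, whereas the other 8 WT libraries had 16.5 to 64.5 and the other 5 of HIF2 had 25.4 to 53.0. The near-0 values occur in both groups, and whether they are failed estimates was not tested. The log2 difference of -1.73 (SE 1.02, adjusted p = 0.252) rests on them.

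The 4 complex I assembly factors were lower in level than the subunits, at 10.7 to 14.6 FPKM in WT, and 0 passed. Ndufaf3 was 14.6 ± 1.85 FPKM in WT and 13.0 ± 3.21 in HIF2 (-0.17, SE 0.12, adjusted p = 0.354). Ndufaf2 was 12.4 ± 2.99 and 12.5 ± 2.98 (0.01, SE 0.14, adjusted p = 0.971), and Ndufaf4 was 11.5 ± 1.91 and 11.3 ± 1.85 (adjusted p = 0.899).

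In complex II, Sdha fell and the other 3 genes did not pass. Sdha encodes the flavoprotein that oxidises succinate (chromosome 13, 74322254 to 74350280; it overlaps Gm16125 by 339 bases on the other strand). Its WT values were 85.1, 103, 99.5, 121, 90.5, 117, 93.4, 89.0 and 97.5 FPKM in WT 0 to WT 8. In HIF2 0 to HIF2 8 they were 77.5, 85.3, 88.2, 78.1, 103, 66.0, 94.3, 74.7 and 76.1. The groups overlapped, and 8 of 9 HIF2 libraries lay below the WT median, with HIF2 4 above it. Sdha fell by 0.27 on the log2 scale (SE 0.09, limma adjusted p = 0.0343; 99.6 ± 12.4 against 82.5 ± 11.2 FPKM). The call was lost in 21 of 37 alternatives, among them the replicate block (adjusted p = 0.0888), TPM scaling (adjusted p = 0.079), quantile normalization (0.116), HIF2 0 to HIF2 5 against WT (0.0627), and leaving out WT 1, WT 2, WT 3, WT 5, HIF2 3, HIF2 5, HIF2 7 or HIF2 8 (0.0525 to 0.0677), while the direction held and the log2 value stayed between -0.35 and -0.23 in all 37. It was kept without the libraries labelled HIF2 2 and HIF2 4 (-0.33, adjusted p = 0.013). Sdhb, the iron-sulfur subunit, was 195 ± 33.1 FPKM in WT and 169 ± 36.1 in HIF2 (-0.22, SE 0.13, adjusted p = 0.274). Sdhd, a membrane anchor, was 269 ± 50.8 and 261 ± 49.9 (-0.04, SE 0.12, adjusted p = 0.859), and Sdhc, the other anchor, was 173 ± 26.8 and 172 ± 43.5 (adjusted p = 0.926).

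Of the 8 complex III genes, 0 passed, and their median difference was -0.05. The highest were Uqcrh, the hinge protein that contacts cytochrome c1, at 751 ± 125 FPKM in WT and 767 ± 146 in HIF2 (0.02, SE 0.13, adjusted p = 0.944), and Uqcrb, at 717 ± 148 and 693 ± 134 (-0.05, SE 0.14, adjusted p = 0.843). Uqcrc1, a core protein whose promoter window is shown above, was 163 to 204 FPKM (median 178) in WT and 115 to 204 (median 160) in HIF2. It lay below the WT median in 7 of 9 HIF2 libraries, and its log2 difference of -0.18 (SE 0.10) did not pass (adjusted p = 0.185). Uqcrc1 passed in 3 of 37 alternatives and changed sign in 4. The 3 were TPM scaling (-0.22, adjusted p = 0.046) and HIF2 0 to HIF2 5 (-0.30, 0.0178) and HIF2 1 to HIF2 5 (-0.23, 0.0304) against WT. Uqcr10 was 565 ± 104 and 530 ± 101 (-0.10, SE 0.14, adjusted p = 0.671).

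Complex IV held the member with the largest difference. Ndufa4l2 (chromosome 10, 127514967 to 127517154; its annotation overlaps that of Shmt2 on the other strand by 32 bases) was 0.250, 0.323, 0.338, 0.665, 0.380, 0.390, 0, 0 and 0.348 FPKM in WT 0 to WT 8. It was 0.861, 13.2, 0, 5.06, 0, 23.0, 62.9, 48.9 and 35.4 FPKM in HIF2 0 to HIF2 8. Thus 7 of 9 HIF2 libraries exceeded every WT library, while the libraries labelled HIF2 2 and HIF2 4, in which Egln3 was within the WT range, were listed at 0. Of the 7, HIF2 0 was close to the WT maximum of 0.665 FPKM, at 0.861, although its Egln3 was 359 FPKM. Ndufa4l2 rose by 2.83 on the log2 scale (SE 0.75, 95% interval 1.27 to 4.40, limma adjusted p = 0.0104). It reached the mean of 1 FPKM needed for testing only through the HIF2 libraries. The call was lost with a pseudocount of 0.01 (4.10, adjusted p = 0.0954), with an exact rank test (adjusted p = 0.109) and in HIF2 0 to HIF2 5 against WT (1.62, adjusted p = 0.0609); in HIF2 6 to HIF2 8 against 8 WT libraries the difference was 5.29 (adjusted p = 1.12e-08), and without HIF2 2 and HIF2 4 it was 3.74 (adjusted p = 0.000196). The values of HIF2 6, HIF2 7 and HIF2 8 were the 3 highest, and these libraries had lower smooth muscle and pericyte marker means than the other HIF2 libraries. Of pericyte marker Rgs5 they had 5.99, 3.37 and 1.20 FPKM, against 92.2 and 71.7 in HIF2 2 and HIF2 4. Of Kcnj8, another pericyte marker, they had 3.39, 5.34 and 4.24, against 6.82 and 5.45 in HIF2 2 and HIF2 4 and at most 1.91 in WT, so this marker was above WT in them. The part of these cells in the Ndufa4l2 values was not tested. Shmt2, a mitochondrial serine hydroxymethyltransferase, was 5.04 ± 1.19 FPKM in WT against 13.5 ± 7.84 under HIF2 (difference 1.05, SE 0.31, adjusted p = 0.0191). In HIF2 2 and HIF2 4 it was 3.23 and 4.49 FPKM. The Shmt2 call was lost in 3 of 37 alternatives. These were the exact rank test (adjusted p = 0.131), HIF2 0 to HIF2 5 (0.131) and HIF2 1 to HIF2 5 (0.267) against WT. Since the kit does not mark strand, reads in the bases shared by Shmt2 and Ndufa4l2 cannot be told apart.

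Ndufa4, the homologous subunit of complex IV that most tissues use (chromosome 6, 11900292 to 11907497, no overlapping gene), went the other way in some libraries. It was 319, 292, 377, 274, 407, 359, 436, 293 and 281 FPKM in WT 0 to WT 8 and 191, 271, 400, 324, 379, 213, 175, 259 and 113 in HIF2 0 to HIF2 8. Here 6 of 9 HIF2 libraries lay below the WT minimum, and HIF2 2, HIF2 3 and HIF2 4 lay inside the WT range. The log2 difference of -0.46 (SE 0.20, 95% interval -0.88 to -0.04; 338 ± 59.5 against 258 ± 96.0 FPKM) did not pass (adjusted p = 0.107). It passed without HIF2 2 (-0.55, adjusted p = 0.0479), in HIF2 6 to HIF2 8 against 8 WT libraries (-0.98, adjusted p = 0.0102) with the smooth muscle marker mean as a covariate (-0.77, adjusted p = 0.0418; -0.74 and 0.0437 with HIF2 0 left out as well) and without HIF2 2 and HIF2 4 (-0.66, adjusted p = 0.0156). It was smaller in HIF2 0 to HIF2 5 (-0.22, adjusted p = 0.368) and in HIF2 1 to HIF2 5 (-0.11, adjusted p = 0.671) against WT, with array weights (-0.28, adjusted p = 0.243) and without HIF2 8 (-0.33, adjusted p = 0.17). As a share of the sum of the pair, Ndufa4l2 was at most 0.242% in any WT library and 0.449, 4.64, 0, 1.54, 0, 9.76, 26.4, 15.9 and 23.9% in HIF2 0 to HIF2 8, so Ndufa4 remained the more abundant in every library.

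**Figure D2:**
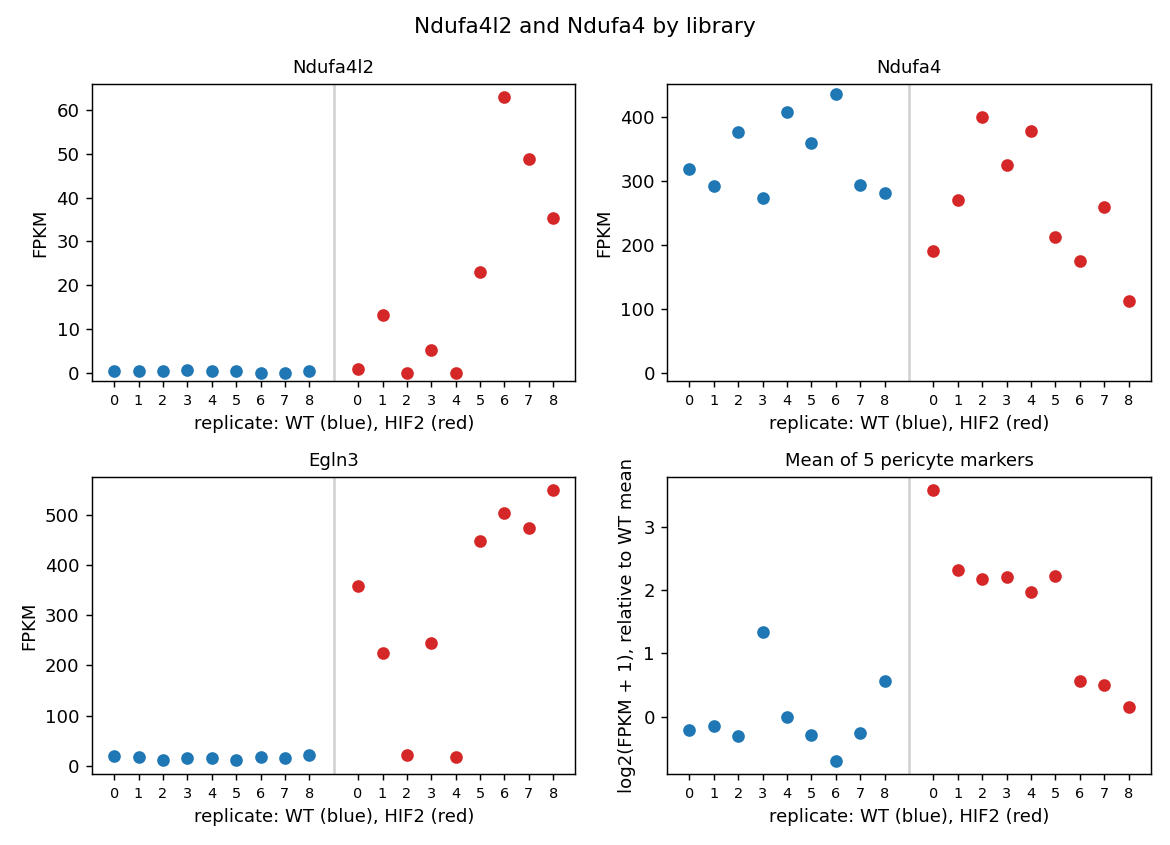
FPKM of Ndufa4l2, Ndufa4 and Egln3 and the mean of 5 pericyte markers (log2(FPKM + 1), relative to the WT mean) in each library, by replicate number, with WT in blue and HIF2 in red. HIF2 2 and HIF2 4 have Ndufa4l2 at 0 and Egln3 at 21.8 and 16.7 FPKM, while HIF2 0 has 0.861 and 359. HIF2 6 to HIF2 8 have the 3 highest Ndufa4l2 values. Their pericyte marker means (0.56, 0.49 and 0.15) are below those of the other HIF2 libraries and inside the WT range of -0.70 to 1.34.

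The Ndufa4 promoter is shown because this gene stood apart from the other abundant complex IV subunits. The bases before its start that lie outside annotated exons, chr6:11907498-11907700 (-), number 203, against 300 in the promoters counted above. They leave out the bases nearest the RefSeq start and those after it, so the 0 cannot be set beside those rates. These 203 bases hold 0 matches to the NRF1, ETS and hypoxia response element letters named above:
Ndufa4: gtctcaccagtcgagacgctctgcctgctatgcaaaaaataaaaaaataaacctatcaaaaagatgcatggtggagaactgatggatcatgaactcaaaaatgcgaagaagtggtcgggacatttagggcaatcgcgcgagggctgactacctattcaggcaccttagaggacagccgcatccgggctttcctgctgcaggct

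Of the other isoform pairs in complex IV, Cox4i1 and Cox4i2 have the best known switch. Cox4i1, the general form of the subunit that binds near the oxygen-reducing core, was 767 to 1184 FPKM (median 894) in WT and 545 to 1040 (median 961) in HIF2 (-0.02, SE 0.13, adjusted p = 0.921). Cox4i2, its hypoxic and lung form, was too low to test. It was 0.384, 0.470, 0.491 and 1.45 FPKM in WT 0 to WT 3 and 0 in the other 5 WT libraries, and 0.420, 2.59, 0, 0.491, 3.18, 0, 0.919, 0.450 and 0 in HIF2 0 to HIF2 8. The 2 highest values came from HIF2 1 and HIF2 4, and the highest WT value from WT 3, the WT library with the highest smooth muscle and pericyte marker means; the part of these cells in the Cox4i2 values was not tested. Cox4i2 was at most 0.319% of the sum with Cox4i1.

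Muscle-type isoforms were low, apart from Cox7a1. Cox7a1 held 29.0 ± 2.97% of the sum with Cox7a2 in WT and 25.2 ± 6.91% in HIF2, where HIF2 0 stood at 8.70%. The Cox7a1 level was 82.6 to 160 FPKM (median 126) in WT and 23.7 to 164 (median 114) in HIF2. The log2 difference was -0.25 (SE 0.27, adjusted p = 0.57), and 0.007 without HIF2 0. Cox7a2, the liver-type form, was 301 ± 65.6 FPKM in WT and 318 ± 49.1 in HIF2 (0.09, SE 0.13, adjusted p = 0.662). Cox6b2, known from testis, was 0 to 4.87 FPKM in WT and 0 to 4.70 in HIF2 (0.28, SE 0.38, adjusted p = 0.668), against 873 ± 190 and 874 ± 150 FPKM for Cox6b1 (0.01, SE 0.14, adjusted p = 0.971). Cox6a2, a striated muscle form, was above 0 only in WT 0, WT 6 and HIF2 5 and never above 0.657 FPKM, beside 810 ± 88.0 and 802 ± 151 for Cox6a1 (adjusted p = 0.881). Cox8b was at most 4.76 FPKM, and Cox7b2 and Cox8c were listed at 0 in every library. These 4 low genes and Cox4i2 are the 5 members that were not tested. Cox8a, the general form beside Cox8b, was 636 to 1048 FPKM (median 864) in WT and 571 to 1399 (median 919) in HIF2, with HIF2 7 and HIF2 8 highest. Its log2 difference of 0.18 (SE 0.15) did not pass (adjusted p = 0.432), but did in HIF2 6 to HIF2 8 against 8 WT libraries (0.51, adjusted p = 0.0305).

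Complex V held the highest levels. Atp5k, subunit e of the membrane part, was 1127 ± 257 FPKM in WT and 1083 ± 199 in HIF2 (-0.05, SE 0.14, adjusted p = 0.858), and Atp5b, the catalytic beta subunit, was 878 ± 93.4 and 809 ± 166 (-0.14, SE 0.11, adjusted p = 0.431). Atp5d, the delta subunit of the central stalk (chromosome 10, 80138632 to 80145818; it overlaps Cbarp by 2204 bases on the other strand), was the only complex V gene to pass. Its values in WT 0 to WT 8 were 130, 158, 159, 162, 168, 176, 157, 154 and 143 FPKM. In HIF2 0 to HIF2 8 it had 125, 132, 124, 116, 159, 141, 138, 143 and 112. The groups overlapped, and 8 of 9 HIF2 libraries lay below the WT median, with HIF2 4 again the exception. Atp5d fell by 0.24 on the log2 scale (SE 0.07, limma adjusted p = 0.0255; 156 ± 13.5 against 132 ± 14.6 FPKM). The row for Cbarp, under its older symbol Dos, was at most 3.45 FPKM in any library. The Atp5d call was lost in 10 of 37 alternatives. Among them were the pericyte (adjusted p = 0.122), epithelial (0.104) and smooth muscle (0.0851) marker means as covariates, HIF2 6 to HIF2 8 against 8 WT libraries (0.109), quantile normalization (0.058), and leaving out WT 5 (0.0505) or HIF2 3 (0.0502). Its log2 value stayed between -0.28 and -0.19 in all 37, and it passed without HIF2 2 and HIF2 4 (-0.27, adjusted p = 0.0178).

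Atp5l, subunit g, had a difference of the opposite sign. It was 345 to 656 FPKM (median 444) in WT and 369 to 705 (median 593) in HIF2, above the WT median in 8 of 9 HIF2 libraries, but did not pass (0.22, SE 0.13, adjusted p = 0.255). The 3 genes for the c subunit of the proton-driven ring, whose mature proteins are known to be identical, were compared by share. Atp5g1, Atp5g2 and Atp5g3 held 25.7 ± 1.55, 25.2 ± 1.85 and 49.1 ± 2.44% of their sum in WT and 27.5 ± 2.02, 25.1 ± 2.37 and 47.3 ± 2.62% in HIF2. The 3 genes that match by name only had low levels, 2.64 to 10.3 FPKM in WT, and 0 passed.

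Members varied between libraries mainly as a body, and the difference between libraries of the same group was larger than that between the groups. The median over the 85 members, relative to the WT mean, ran from -0.26 (WT 3) to 0.34 (WT 6) in WT and from -0.59 (HIF2 0) to 0.36 (HIF2 7) in HIF2. The median over all genes tested stayed between -0.09 and 0.04. FPKM sums of the libraries went in part with the member medians. The sums were 686539 in WT 3, 728216 in WT 8, 897197 in WT 4 and 928304 in WT 6. They were 714600 in HIF2 0 and 937505 in HIF2 7. WT 0, HIF2 1 and HIF2 5 had sums of 813321, 830092 and 844388 but member medians of -0.098, -0.155 and -0.065. Between the groups, TPM scaling gave a member median of -0.067 with 65 members below 0, and median-ratio scaling -0.003 with 45 below. The part of scaling in the medians of the single libraries was not tested. In HIF2 0, 82 of 85 members were below the WT mean, and in WT 3 and WT 8, 79 and 80 were. Above the WT mean were 81 members in WT 4 and 79 each in WT 6 and HIF2 7. Over 83 members (without Ndufa4l2 and Ndufs5), the median correlation between pairs of genes across the 9 libraries was 0.791 in WT and 0.763 in HIF2, beside 0.000398 and 0.00640 for a regular sample of 2796 of the genes tested. The sampled genes were not matched to the members in level, and other abundant genes were not compared as a class. These correlations are a description: the points share library, scaling and tissue makeup, and genes are not independent.

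**Figure D3:**
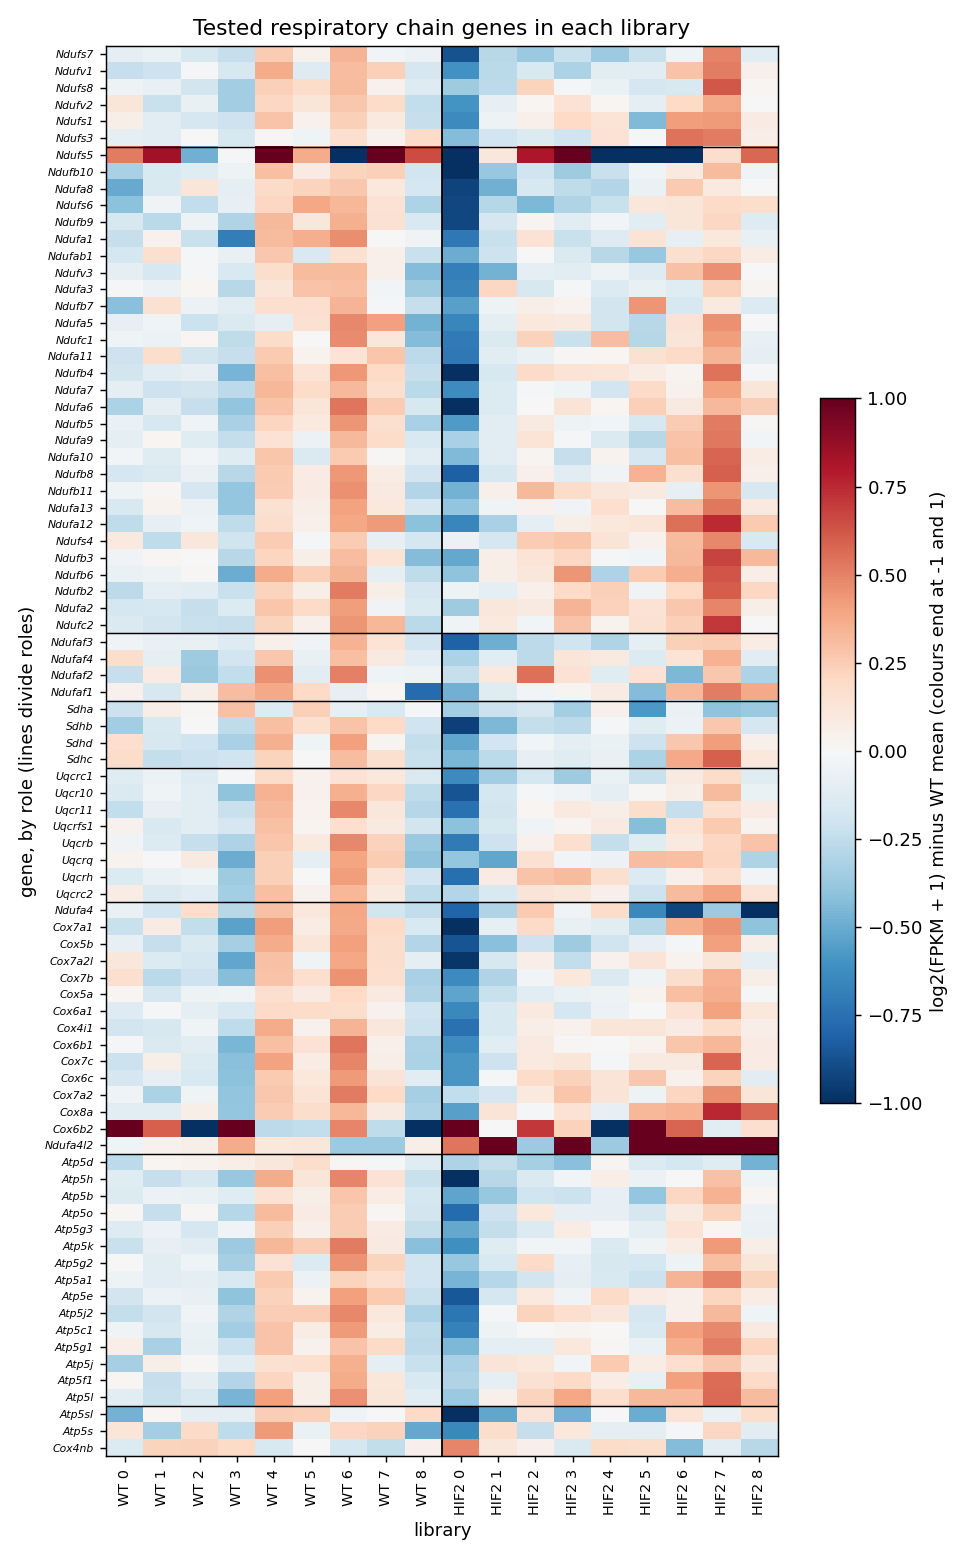
Log2(FPKM + 1) of the tested members, 1 left out, in each library, minus the gene's WT mean, with genes in rows by role and colours ending at -1 and 1. Whole columns share a colour, darkest blue in HIF2 0 (median -0.59) and red in WT 4, WT 6 and HIF2 7, while Ndufs5, Cox6b2, Ndufa4l2 and Ndufa4 depart from their column.

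Each of complexes I to V had its lowest median in HIF2 0, between -0.67 (complex III) and -0.48 (complex II). That library had the highest pericyte marker mean (3.57), with Kcnj8 at 90.9 FPKM against 3.39 to 15.1 in the other HIF2 libraries, though its Rgs5 of 86.0 FPKM was below that of HIF2 1 (89.2) and HIF2 2 (92.2). It had an endothelial marker mean of 2.64, and its epithelial marker mean was -0.15, inside the WT range of -0.21 to 0.17. In WT 3, the WT library with the lowest member median, the pericyte and smooth muscle means were 1.34 and 2.96. WT 6, with the highest member median in WT, had the lowest values of both, -0.70 and -1.36. The order did not hold across groups: HIF2 1 to HIF2 5 had smooth muscle means of 3.96 to 4.30 and pericyte means of 1.97 to 2.32, above those of WT 3, and member medians of -0.155, 0.039, -0.017, -0.014 and -0.065, also above that of WT 3 (-0.256). Complex II was the lowest of the 5 complexes in HIF2 1, HIF2 2, HIF2 3, HIF2 5 and HIF2 8, with medians of -0.23, -0.12, -0.19, -0.26 and -0.06, and the highest of them in HIF2 0.

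**Figure D4:**
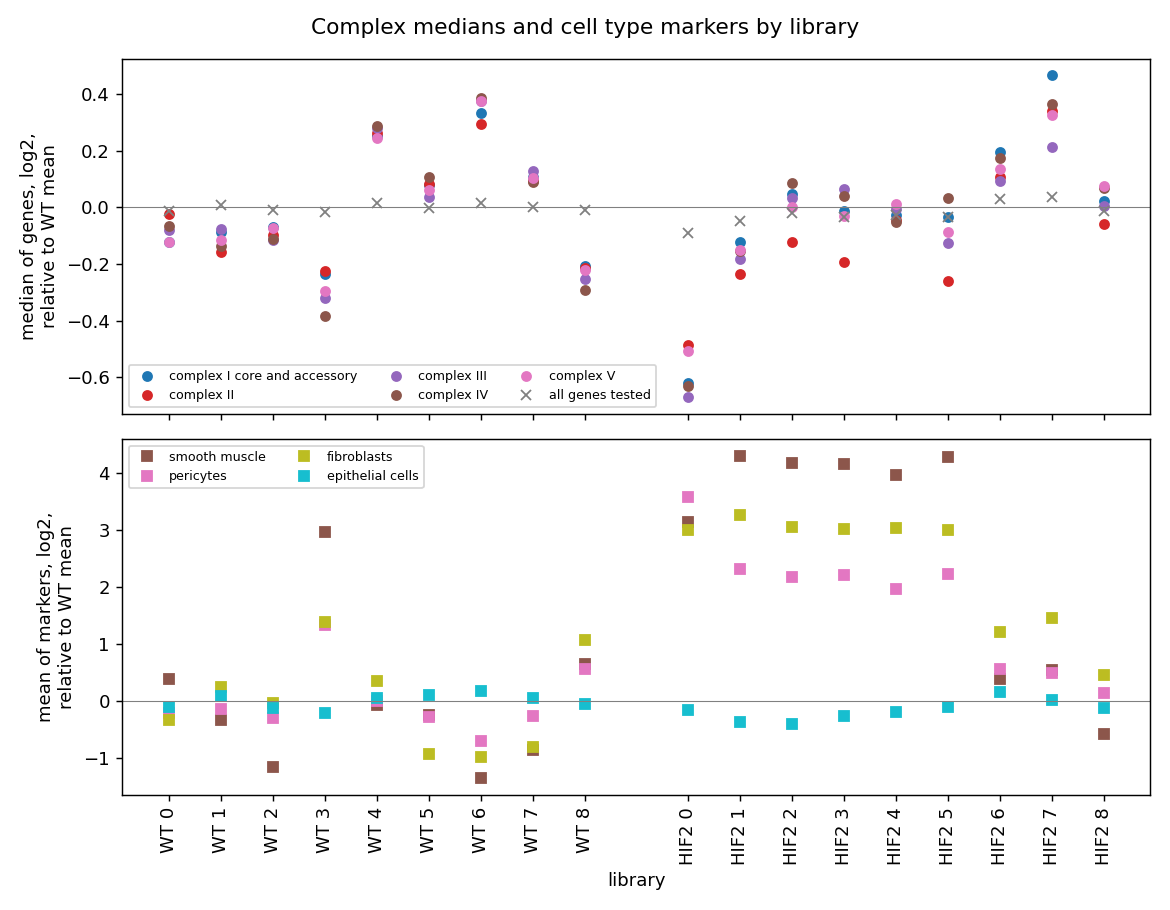
Top, median over the genes of each complex (circles) and over all genes tested (crosses) in each library, relative to the WT mean; bottom, mean of the smooth muscle, pericyte, fibroblast and epithelial markers in the same libraries, both on the log2 scale. The complexes keep close together in each library, from about their lowest in HIF2 0 to their highest in WT 6 and HIF2 7, and the muscle, pericyte and fibroblast markers are high in HIF2 0 to HIF2 5.

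Since marker means of other cell types differed between libraries and between groups, the comparison was repeated with marker means as covariates. With the pericyte mean in the fit, 23 members were higher and 0 lower (median difference 0.32; of all genes 17.1% were called and 9.29% higher). Without HIF2 0, an alternative added after the data were seen, the numbers were 17 and 0 (19.2% of all genes called, 9.91% higher). With the smooth muscle mean, 3 were higher and 1 lower (median 0.16; 14.1% of all genes called), and 13 and 1 without HIF2 0 (19.8% of all genes). With the epithelial mean, 1 was higher and 0 lower (median 0.10; 19.6% of all genes). Marker means differ between the groups themselves, so these fits separate genotype from tissue makeup only in part. In the pericyte mean, 3 of the 5 markers (Kcnj8, Abcc9 and Cspg4) reached a mean of 1 FPKM only through the HIF2 libraries. So did Lmod1 in the smooth muscle mean. In HIF2 0 to HIF2 5 against 9 WT libraries, 0 members were higher and 5 lower (median -0.14; 25.8% of all genes called): Atp5b, Atp5d, Ndufaf3, Ndufs7 and Uqcrc1. With HIF2 0 also left out, 1 was higher and 3 lower (median -0.04; 25.1% of all genes). In HIF2 6 to HIF2 8 against 8 WT libraries (WT 3 left out), Cox8a, Ndufa4l2 and Ndufs3 were higher and Ndufa4 lower (median 0.15; 19.1% of all genes called). The Y-linked gene Ddx3y was at most 0.217 FPKM in HIF2 6 to HIF2 8 and in WT 5 to WT 8, and 19.4 to 25.0 in WT 0 to WT 4, so this gene was not balanced in these subsets, and the part of sex in the results was not tested.

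Genes that serve the respiratory chain were then taken from lists of mitochondrial function. Of 19 carriers and subunits whose symbols fall outside the pattern, 1 rose and 1 fell (median -0.09; 22.1% of all genes were called in either direction). Slc25a4, the ADP/ATP carrier of heart and muscle, was 10.5 to 33.3 FPKM in WT and 37.0 to 89.7 in HIF2, with no overlap, and rose by 1.80 (SE 0.21, adjusted p = 1.41e-05). WT 3 was the highest of the WT libraries and HIF2 6 to HIF2 8 the lowest 3 of HIF2, as for the smooth muscle markers, and their part in it was not tested. Slc25a3, the phosphate carrier that feeds complex V, was 271 to 340 FPKM in WT and 214 to 288 in HIF2, below the WT median in 9 of 9, and fell by 0.35 (SE 0.07, adjusted p = 0.00132). Coq3, a methyltransferase of coenzyme Q synthesis, was 5.20 ± 1.26 and 6.90 ± 1.33 FPKM, above the WT median in 8 of 9 HIF2 libraries, and did not pass (0.35, SE 0.13, adjusted p = 0.0507). Cyc1, the cytochrome c1 of complex III, was 174 ± 14.6 and 152 ± 19.7 FPKM (-0.20, SE 0.08, adjusted p = 0.0738).

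Among 22 assembly factors of complexes I to V found of 34 listed, 0 rose and 6 fell (median -0.09; 11.1% of all genes fell). All 6 act in complex III or IV: Cox11, Cox10, Cox15, Cox18 and Sco1, for copper, haem and membrane insertion of complex IV, and Ttc19 of complex III. Cox11, a copper chaperone, was 6.72 to 9.95 FPKM in WT and 3.97 to 6.74 in HIF2, and fell by 0.50 (SE 0.09, adjusted p = 0.000801). Cox15, which makes haem a, fell by 0.28 (SE 0.08, adjusted p = 0.0104) and Cox10, which acts before it, by 0.38 (SE 0.11, adjusted p = 0.0141). The count was 2 with the smooth muscle or the pericyte mean in the fit, 3 with the epithelial mean and 1 in HIF2 6 to HIF2 8.

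Of 13 genes of the tricarboxylic acid cycle, 0 rose and 3 fell (median -0.12; 11.1% of all genes fell). Ogdh, of the 2-oxoglutarate dehydrogenase complex, fell by 0.45 (45.3 ± 6.93 to 32.9 ± 5.18 FPKM, SE 0.10, adjusted p = 0.0044), Idh3a, the catalytic isocitrate dehydrogenase subunit, by 0.36 (40.6 ± 3.15 to 31.6 ± 4.43, SE 0.08, adjusted p = 0.00292) and Cs, citrate synthase, by 0.35 (187 ± 15.3 to 147 ± 21.7, SE 0.08, adjusted p = 0.00461). With the pericyte mean in the fit 1 passed (Ogdh), and in HIF2 1 to HIF2 5 against WT 5 did.

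Of 12 regulators of mitochondrial biogenesis, 0 rose and 3 fell (median -0.18; 11.1% of all genes fell). Ppargc1b, a coactivator, fell by 0.73 (8.74 ± 2.19 to 4.84 ± 1.09 FPKM, SE 0.14, adjusted p = 0.00103), below the WT median in 9 of 9 HIF2 libraries. Ppargc1a, its relative, fell by 0.58 (13.3 ± 1.94 to 9.07 ± 3.13, SE 0.19, adjusted p = 0.0371), a call lost in 16 of 37 alternatives, 8 of them with 1 library left out (WT 0, WT 1, WT 5, WT 7, WT 8, HIF2 1, HIF2 5 or HIF2 7; adjusted p = 0.0534 to 0.0666). Polrmt, the mitochondrial RNA polymerase, fell by 0.26 (SE 0.08, adjusted p = 0.0182). Nrf1, whose motif is shown above, was 11.8 ± 1.33 and 11.2 ± 1.31 FPKM (-0.07, SE 0.08, adjusted p = 0.598), and Gabpa was 11.7 ± 1.20 and 12.7 ± 2.00 (0.10, SE 0.09, adjusted p = 0.48). With the smooth muscle mean in the fit, 1 of the 12 was lower.

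Of 14 genes of mitochondrial import and the outer membrane, 0 passed the test in either direction (median 0.06; 2 at an unadjusted p under 0.05). Vdac1, the main outer membrane channel, was 193 ± 14.8 FPKM in WT and 174 ± 17.5 in HIF2 (-0.155, SE 0.071, adjusted p = 0.131). Phb2, a prohibitin of the inner membrane, was 53.5 ± 9.82 and 44.1 ± 8.87 (-0.28, SE 0.13, adjusted p = 0.134), below the WT median in 8 of 9 HIF2 libraries. Tomm70a, an import receptor, was 33.8 ± 3.44 and 38.3 ± 5.29 (0.17, SE 0.08, adjusted p = 0.157). In a list of 10 genes of the Cox4 switch and hypoxic control of respiration, 1 rose (11.0% of all genes did) and 0 fell. It was Bnip3, a mitophagy receptor, by 1.75 (18.4 ± 4.38 to 76.8 ± 51.7 FPKM, SE 0.32, adjusted p = 0.000935). Lonp1, the protease known to degrade Cox4i1 in hypoxia, was 22.5 ± 2.86 and 21.8 ± 2.53 FPKM (adjusted p = 0.763). Pdk1, which encodes a pyruvate dehydrogenase kinase, was 20.8 ± 3.83 and 31.7 ± 13.1 (0.51, SE 0.19, adjusted p = 0.068).

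**Figure D5:**
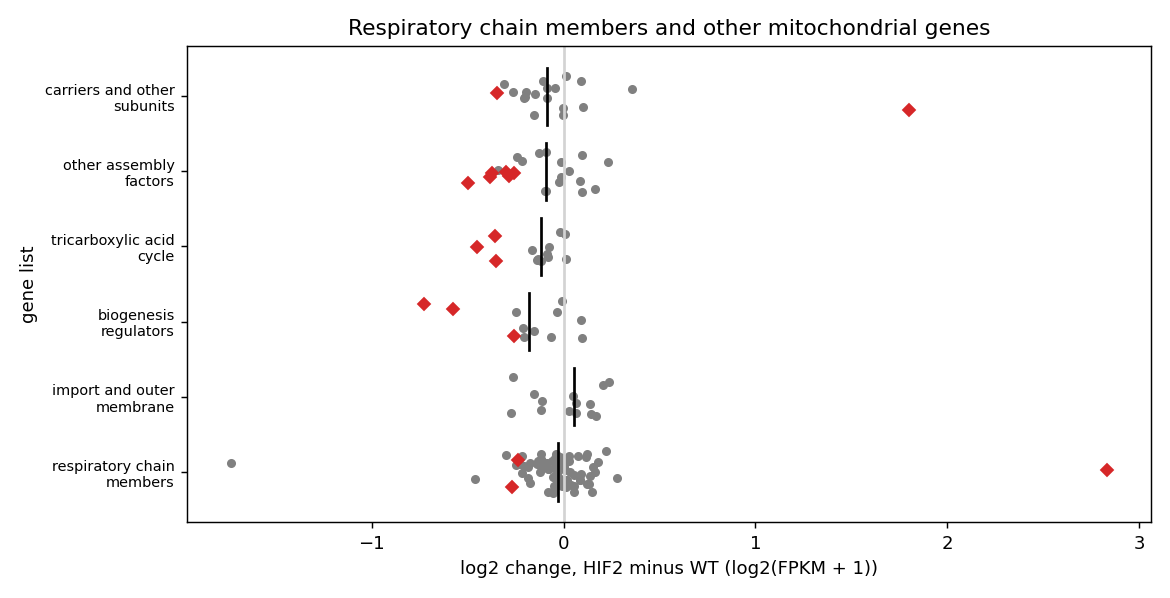
Log2 difference (HIF2 minus WT, log2(FPKM + 1)) of each tested gene in 5 lists of other mitochondrial genes and in the 85 members, with red diamonds for an adjusted p under 0.05 and a black bar at each list's median. The medians run from -0.18 (biogenesis regulators) to 0.06 (import and outer membrane), with -0.03 for the members.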

How the data were processed

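Polyadenylated RNA of 18 colon libraries, 9 per group, was sequenced after a TruSeq RNA v2 preparation, per the labels' protocols. The deposited values were FPKM per gene, 27131 rows by 18 columns, all used. Cuffdiff 2.1.1, Cufflinks, TopHat2 2.0.9, Bowtie2 2.1.0.0 and the build mm10 are listed, without roles, per the submitters' processing notes; counting settings and annotation are not stated there. Depth is unknown, so no counting interval is given.

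FPKM were analysed as log2(FPKM + 1) with limma 3.58.1 (R 4.3.3, trended prior, 2-sided, no covariate) and Benjamini-Hochberg adjustment at 0.05 over all 13976 genes with mean FPKM of at least 1. On simulated data with 200 of 13976 genes changed, independent between genes, the test found 94% of genes changed 2-fold and 99% of those changed 4-fold, made 6 false calls, and made 0 calls with none changed. The changed genes were drawn only from those above a set WT level. These rates do not cover low genes, such as Ndufa4l2 in WT, or changes under 2-fold. Other settings tried were pseudocounts, filters, scalings, a replicate block, array weights, an exact rank test over 48620 splits, marker covariates and subsets of libraries.

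Members and lists were chosen with earlier results of these data known. Genes with their own values are isoform pairs, members past the threshold, and, per complex, the 2 highest and the 2 of smallest p; from each list, up to 3 of smallest p. Sdhc, Cyc1, Nrf1, Gabpa, Lonp1, Pdk1, Shmt2 and the other context genes were named outside that rule, after their values were seen. Coordinates are 1-based, from GENCODE M21 on GRCm38, the assembly that mm10 denotes. Of 90 members 88 were matched there, and 41 overlap another gene. The values of 1 member are not reported here; it stays in the counts and medians. Figures were drawn with matplotlib 3.10.9.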

Additional observations from a re-analysis of the deposited data

Results flagged for a closer look

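Among 84 groups of 9 libraries screened (member levels and complex medians), 12 had a lowest or highest library farther from its nearest neighbour than Dixon's 95% limit allows; chance gives this in about 1 of 20 groups, and the groups are not independent. HIF2 0 was the low library in 9 of them. It had 545 FPKM of Cox4i1 (822 to 1040 in the other 8 HIF2 libraries), 552 of Cox6b1 (793 to 1080), 441 of Uqcrh (677 to 924) and 305 of Uqcr10 (493 to 692). It also had 207 FPKM of Ndufb9 (347 to 451), 179 of Ndufa6 (329 to 451) and 23.7 of Cox7a1 (90.4 to 164). Its median relative to WT was -0.671 over complex III, against -0.181 to 0.214 in the others, and -0.645 over the 3 genes that match by name only, against -0.143 to 0.115. The member count and median without HIF2 0 are given with the dependence on processing. Ndufs5 was 0.00149 FPKM in WT 6 and 16.5 to 64.5 in the other WT libraries. Cox4i2 was 1.45 FPKM in WT 3 and at most 0.491 in the other WT libraries, 5 of them at 0. Cox6a2 was 0.64 in HIF2 5 and listed at 0 in the other HIF2 libraries. With all the others at 0, any value above 0 passes the limit, so the Cox6a2 flag was fixed in advance.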

How the results depend on the processing

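The number of members past the threshold was 1 higher and 2 lower in the main comparison. It was 0 higher with a pseudocount of 0.01 and with an exact rank test, 3 with smooth muscle markers as a covariate, 23 with pericyte markers, 0 in HIF2 0 to 5 and 3 in HIF2 6 to 8; 2 covariate fits without HIF2 0, added after seeing the data, gave 17 (pericyte) and 13 (smooth muscle). The number lower was 0 with quantile normalization and with the epithelial or pericyte mean (also without HIF2 0), 1 with median-ratio scaling, the exact rank test, the smooth muscle mean (also without HIF2 0) and HIF2 6 to 8, and 5 in HIF2 0 to 5. Without HIF2 2 and HIF2 4, also added later, 1 was higher and 3 lower. Over all genes, 22.1% were called in the main comparison, and 17.1, 14.1 and 19.6% with the pericyte, smooth muscle and epithelial means. Without HIF2 0 the pericyte and smooth muscle fits called 19.2 and 19.8%. The share was 25.8% in HIF2 0 to 5, 19.1% in HIF2 6 to 8 and 21.8% without HIF2 2 and HIF2 4. With TPM scaling (21.0% of all genes called) 1 member was higher and 2 lower, Atp5d and Uqcrc1, and 20 lay above 0. Members above 0, of 85, numbered 32 in the main comparison, 78, 75 and 64 with the pericyte, smooth muscle and epithelial means, 14 in HIF2 0 to 5 and 72 in HIF2 6 to 8. With each library left out in turn, the number higher was 1 in every fit and the number lower ran from 0 (without WT 5 or HIF2 3) to 3 (without HIF2 2), with 1 without WT 1, WT 2, WT 3, HIF2 5 or HIF2 8. The member median was 0.003 without WT 4, 0.013 without WT 6 and 0.031 without HIF2 0, against -0.03. Members above 0 numbered 43, 50 and 56 in these fits, in the same order. In each other fit with a single library left out, more members lay below 0 than above. Without HIF2 0, 1 member was higher and 2 were lower.

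With the replicate block, the number of members lower was 1 and higher 1, the lost call being Sdha (adjusted p = 0.0888). Same-numbered WT and HIF2 libraries correlated between -0.0333 and 0.112, with 1 of 9 over 0.1 and 0 WT libraries correlating best with their own number, so the numbers were not taken to pair samples.

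Some differences that did not pass changed sign. With the pericyte mean, Uqcrc1 was 0.095, Cox7a1 0.533, Ndufs7 0.205 and Sdhb 0.179; without HIF2 0 as well, 0.059, 0.262, 0.160 and 0.113. With the smooth muscle mean, Cox7a1 was 0.005 and Ndufs7 0.028; without HIF2 0 as well, Uqcrc1 was 0.011, Cox7a1 0.197, Ndufs7 0.086 and Sdhb 0.058. In HIF2 6 to 8, Uqcrc1 was 0.048, Cox7a1 0.068 and Ndufs7 0.088, in HIF2 0 to 5 Cox8a was -0.006, and with single libraries left out Cox7a1 ran from -0.336 to 0.007 (without HIF2 0). The cause was not tested for any of these. Of all genes called, 49.6% were higher, against 33.8% with a filter at a mean FPKM of 5 and 60.8% with no filter.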
